A study of Mus musculus with 12 samples.

Results

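Liver gene expression was compared between mice carrying human receptors and WT mice. The humanised side held 6 libraries, 3 from hCAR/hPXR mice and 3 from Car KO/hPXR mice, and the WT side held 3 libraries from WT mice given CITCO and 3 from WT mice given corn oil. Libraries were assigned by the genotype and treatment in their labels, and the comparison took all 12 libraries of the series. In hCAR/hPXR mice the mouse receptors Car and Pxr were replaced by human CAR and human PXR. In Car KO/hPXR mice mouse Car was deleted with no human CAR in its place, and mouse Pxr was replaced by human PXR. Loss of both mouse genes and a human PXR are therefore what the humanised genotypes shared. All animals were adult males, injected intraperitoneally each day for 4 days and killed on day 5. The labels give the dose of CITCO as 10 mg/kg, though the methods also name a higher dose for short treatments, and corn oil was given to the control mice. The methods place the deleted and humanised lines on a C57BL/6NTac background.

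CAR and PXR are nuclear receptors of the hepatocyte that sense drugs and other foreign compounds. On activation they bind DNA as heterodimers with RXR and raise the transcription of genes for cytochrome P450s, conjugating enzymes and transporters, so that the liver clears the compound. CITCO is an imidazothiazole that activates human CAR far better than mouse Car. The study's introduction cites in vitro work which proposes that human PXR is activated by CITCO as well. Every humanised mouse had received CITCO, and no humanised mouse given vehicle was analysed here. Effects of genotype, of strain background and of CITCO in humanised or in WT mice therefore cannot be told apart in this comparison. The WT side mixed CITCO and corn oil, and for this reason many genes are given in each of the 4 groups. Others are summarised by side in the text.

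Sequencing covered the 3' ends of transcripts, and the libraries held between 1167008 and 2341557 counts. Levels are given in CPM (counts per 1e6, on library sizes scaled by edgeR's TMM method), and 3 counts were worth 1.34 to 2.505 CPM. Mitochondrial genes took between 9.47% and 13.9% of the counts, with ranges that overlapped between the sides, and hepatocyte markers including albumin were abundant in every library (summed level 29509 to 47232 CPM). All 12 libraries were kept. Reads were counted on mouse genes only, so that transcripts of the human receptors were not measured.

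Few genes passed the thresholds between humanised and WT livers. Of 8594 genes tested, 23 passed an adjusted p-value under 0.05 with a fold change over 1.5 (0.268% of genes), and such genes are termed called. Expression was higher in the humanised libraries for 14 of them (0.163%) and lower for 9 (0.105%). With no scaling beyond library totals the split was 16 higher and 5 lower. The lower genes included those for Pxr and Car themselves and the bile acid enzyme Cyp7a1, and the higher genes included 3 of the Cyp3a family, Cxcl1 and Gstm3. The quasi-likelihood test of edgeR was used, with p-values adjusted over all genes tested (Benjamini-Hochberg), comparing the average of the 2 humanised groups with the average of the 2 WT groups, and 661 genes (7.69%) had an unadjusted p-value under 0.05. Leaving out single libraries gave between 10 and 27 called genes, with 10 when WT corn oil replicate 2 was left out, 11 and 13 for WT CITCO replicates 1 and 3, 12 for hCAR/hPXR replicate 3, and 15 and 13 for Car KO/hPXR replicates 2 and 3. A fit with a single mean for each side, in which differences between the groups of a side enter the spread, called 11 genes. In counts simulated at the depth and spread of these libraries, 13 of 48 genes changed 1.5-fold were called, and 34 of 49 changed 2-fold. Changes of this size can therefore be missed.

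The targeted genes were examined first. Nr1i2, which encodes Pxr (chromosome 16 of GRCm38, 38248323 to 38294824), had counts of 199, 100 and 155 in the WT corn oil libraries and of 114, 113 and 126 in the WT CITCO libraries. It had counts of 0, 1 and 0 in the hCAR/hPXR libraries and of 2, 0 and 0 in the Car KO/hPXR libraries. All humanised libraries were at or under the floor of 3 counts per library, and expression was at least 39.0-fold lower than in WT (adjusted p = 6.33e-11). Nr1i3, which encodes Car (chromosome 1, 171213970 to 171220701), ranged from 73.3 to 146 CPM in the 6 WT libraries with a median of 124. The hCAR/hPXR libraries were at 1.04, 0 and 5.00 CPM and the Car KO/hPXR libraries at 1.91, 1.67 and 4.11 CPM. Its log2 fold change was -5.73 (standard error 0.34, adjusted p = 7.93e-09). Both genes followed the labelled genotype in every library, and both were called under all 10 other settings and with any of the 12 libraries left out.

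Genes around the targeted loci were inspected because flanking DNA travels with an engineered allele. Within 1 Mb of Nr1i2, 13 genes were tested and 0 were called, with log2 fold changes from -0.28 to 0.31. Within 1 Mb of Nr1i3, 28 were tested and 1 was called, against 0.268% of all genes. That gene, Tomm40l, encodes a relative of the mitochondrial import channel and overlaps Nr1i3 on the opposite strand (171216011 to 171222514). Its counts were 15, 40 and 17 with corn oil and 16, 15 and 12 with CITCO in WT mice, 12, 17 and 6 in hCAR/hPXR mice, and 2, 0 and 0 in Car KO/hPXR mice. The Car KO/hPXR libraries alone were near 0 and lay at least 5.41-fold under the WT mean, while the hCAR/hPXR libraries overlapped with WT. Over both genotypes the log2 fold change was -2.56 (standard error 0.51, adjusted p = 0.0370). Reads in the interval shared with Nr1i3 are uncertain, since counting by strand was not given in the sources used here, and the call was lost when any of 8 libraries was left out (adjusted p up to 0.141). On the other flank Pcp4l1, singled out after its values were seen, had counts of 21, 23 and 8 in hCAR/hPXR mice and of 0, 0 and 2 in Car KO/hPXR mice. WT counts lay between 2 and 15. The humanised genotypes differed from each other at Pcp4l1 by at least 4.49-fold (adjusted p = 0.0414), and the comparison of both with WT did not pass (log2 fold change -0.68, standard error 0.61, adjusted p = 0.862).

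**Figure D1:**
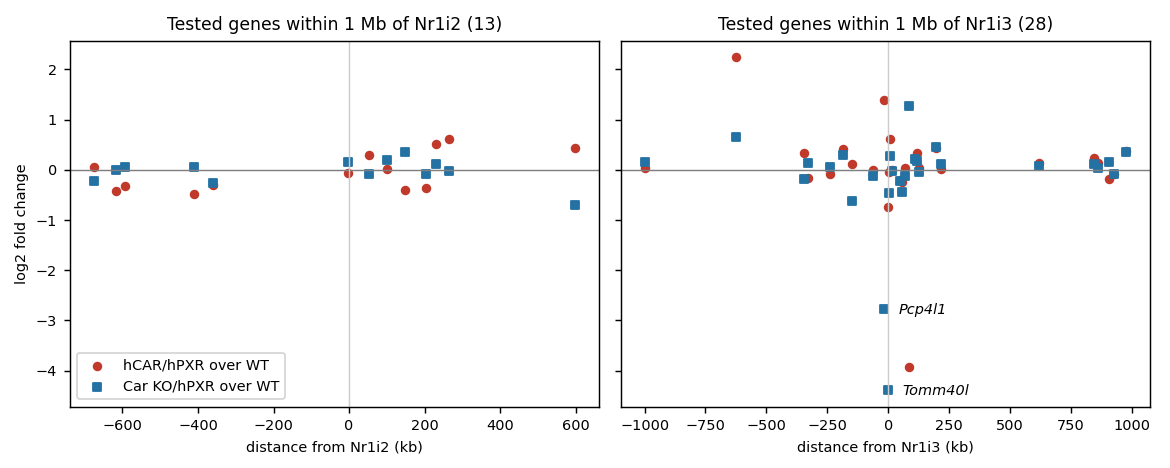
Log2 fold changes over both WT groups (y axis) of the tested genes near Nr1i2 and Nr1i3 against their distance in kb (x axis), with circles for hCAR/hPXR and squares for Car KO/hPXR. Values are as fitted, without bounds. Tomm40l and Pcp4l1 are low in Car KO/hPXR mice, at -4.38 and -2.77, and not in hCAR/hPXR mice to the same extent, at -0.74 and 1.40.

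Cyp7a1, which catalyses the rate-limiting step of bile acid synthesis from cholesterol, was lower in humanised mice. It was at 55.1, 96.6 and 101 CPM with corn oil and 98.6, 44.9 and 124 CPM with CITCO in WT mice, at 24.9, 38.8 and 24.2 CPM in hCAR/hPXR mice, and at 62.9, 44.3 and 40.2 CPM in Car KO/hPXR mice. All hCAR/hPXR libraries lay under every WT library, whereas the Car KO/hPXR libraries overlapped with WT. The mean fell 2.26-fold (log2 fold change -1.18, standard error 0.23, adjusted p = 0.0307), and the call was lost when any of 8 libraries was left out (adjusted p up to 0.115). It was kept under 4 of the 10 other settings, and was lost against WT CITCO alone (adjusted p = 0.0559), against WT corn oil alone (adjusted p = 0.113) and with a single mean for each side (adjusted p = 0.136). It was the only called gene among 20 tested for bile acid synthesis and transport, whose median log2 fold change was -0.01. Among 19 pericentral genes it was also the only one, against 0.268% of all genes called.

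Nat8, an N-acetyltransferase of the pathway that makes mercapturic acids, was lower in humanised mice (chromosome 6, 85830388 to 85832082). It was at 55.1, 65.6 and 46.5 CPM in WT mice given corn oil and at 61.6, 53.9 and 47.8 CPM in those given CITCO. The values were 20.2, 28.9 and 25.02 CPM in hCAR/hPXR mice and 30.5, 32.6 and 26.3 CPM in Car KO/hPXR mice. No humanised library reached the lowest WT library. The fall was 2.03-fold (log2 fold change -1.02, standard error 0.15, adjusted p = 0.00414), and it was called under all 10 other settings and with any library left out.

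**Figure D2:**
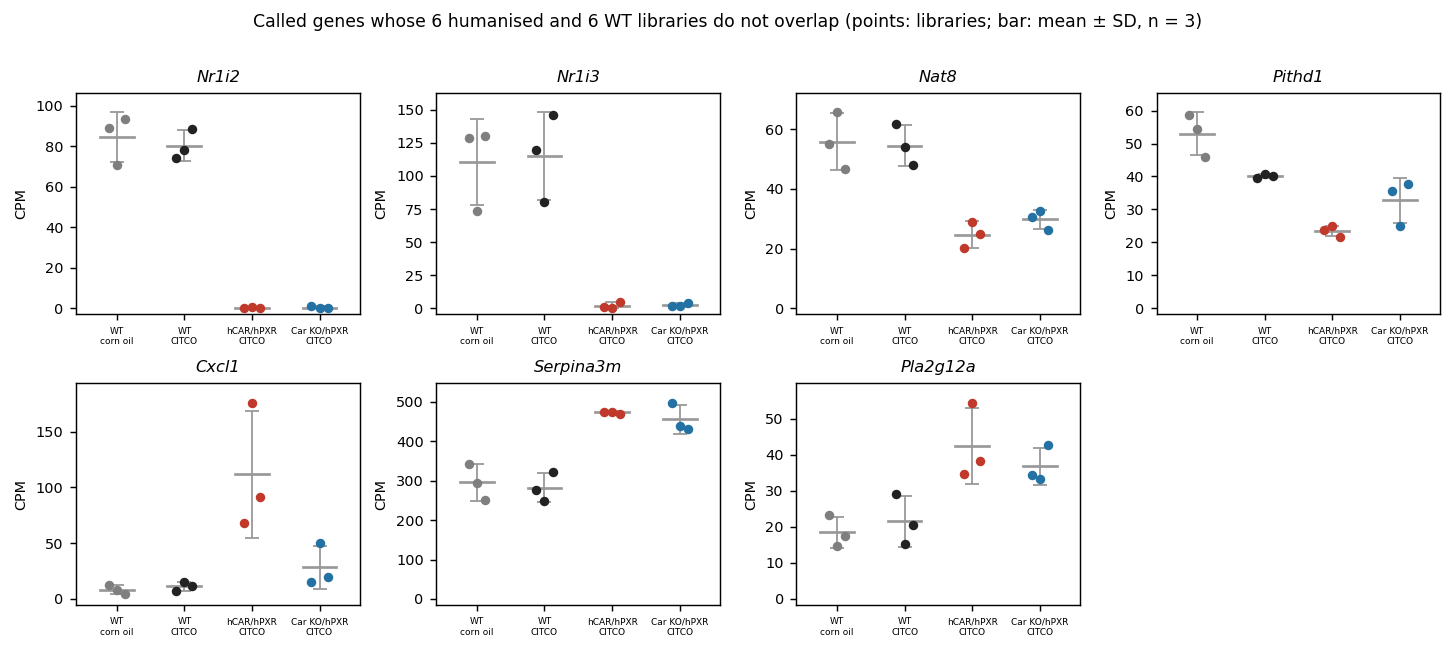
CPM of each library (y axis, linear and starting at 0) in the 4 groups (x axis) for called genes whose humanised and WT libraries did not overlap. Points are libraries and grey bars are the mean ± SD of 3 libraries, with lower bars stopped at 0; Nr1i2, Nr1i3, Nat8 and Pithd1 are lower in the humanised libraries, and Cxcl1, Serpina3m and Pla2g12a are higher.

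Of the Cyp3a P450s, the main oxidases of drugs and steroids in liver and classic targets of PXR, 3 were called higher in humanised mice. Cyp3a11 was at 1365, 702 and 907 CPM in WT mice given corn oil and at 756, 811 and 1121 CPM in WT mice given CITCO. It was at 3865, 3531 and 3488 CPM in hCAR/hPXR mice and at 1358, 2423 and 1551 CPM in Car KO/hPXR mice. The sides overlapped only between the lowest Car KO/hPXR library and the highest WT corn oil library. Expression was 2.69-fold higher (log2 fold change 1.43, standard error 0.18, adjusted p = 0.000616), and this was called under all 10 other settings and with any library left out. Cyp3a25 ranged from 508 to 718 CPM in the humanised libraries, with a median of 674, and from 246 to 511 CPM in WT, with a median of 323. Its log2 fold change was 0.87 (standard error 0.15, adjusted p = 0.0103). Cyp3a59 had counts of 84, 86 and 33 in hCAR/hPXR mice and of 59, 65 and 20 in Car KO/hPXR mice, against 52, 8 and 24 with corn oil and 7, 14 and 12 with CITCO in WT mice. The fitted log2 fold change was 1.84 (standard error 0.32, adjusted p = 0.0127). Both lost the call against the WT corn oil libraries alone (adjusted p = 0.171 for Cyp3a25 and 0.229 for Cyp3a59). Cyp3a25 also lost it without WT corn oil replicate 2 or without WT CITCO replicate 1 (adjusted p up to 0.0605). Cyp3a59 lost it without WT CITCO replicate 1 or without replicate 2 of the Car KO/hPXR group (adjusted p up to 0.0575). Cyp3a13, added after its values were seen, was at 226 ± 77.3 CPM in humanised and 142 ± 22.1 CPM in WT mice (SD, n = 6 each), which did not pass (adjusted p = 0.0630). The Cyp3a genes are close relatives, so that counting may have split reads among them.

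The promoters of the called Cyp3a genes are shown because these genes moved together. Each sequence is RefSeq, build GRCm38.p6, from 250 bases before to 50 bases after the start of the transcript, on the strand of the gene. Capitals mark the nuclear receptor half-sites AGGTCA and AGTTCA, read on either strand.
Cyp3a11 (chr5:145879805-145880104, minus strand): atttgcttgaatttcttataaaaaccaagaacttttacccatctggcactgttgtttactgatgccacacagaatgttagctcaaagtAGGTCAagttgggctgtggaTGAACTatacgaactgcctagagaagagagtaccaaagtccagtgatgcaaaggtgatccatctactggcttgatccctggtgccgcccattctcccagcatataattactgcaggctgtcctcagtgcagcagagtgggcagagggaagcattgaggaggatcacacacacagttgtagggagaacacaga
Cyp3a25 (chr5:146009568-146009867, minus strand): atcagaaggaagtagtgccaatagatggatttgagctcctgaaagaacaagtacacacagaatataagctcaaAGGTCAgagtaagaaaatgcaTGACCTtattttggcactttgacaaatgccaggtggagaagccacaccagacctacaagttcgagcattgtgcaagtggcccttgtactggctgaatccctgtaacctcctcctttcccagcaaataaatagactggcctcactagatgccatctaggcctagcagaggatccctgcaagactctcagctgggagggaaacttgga
Cyp3a59 (chr5:146079008-146079307, plus strand): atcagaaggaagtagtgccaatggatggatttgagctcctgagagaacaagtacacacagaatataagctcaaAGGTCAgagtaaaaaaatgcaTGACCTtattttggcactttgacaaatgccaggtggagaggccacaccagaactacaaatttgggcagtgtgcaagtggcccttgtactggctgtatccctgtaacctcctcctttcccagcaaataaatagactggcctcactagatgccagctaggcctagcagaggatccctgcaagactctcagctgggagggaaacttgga
The Cyp3a25 and Cyp3a59 windows had the same base at 289 of 300 positions (96.3%), and the Cyp3a11 window matched Cyp3a59 at 92. Positions were compared without alignment, and Cyp3a25 windows that start 1 base apart matched at only 81. The low count for Cyp3a11 therefore does not show that its sequence is unlike the others. A pair of half-sites facing each other, 14 bases apart in Cyp3a11 and 15 bases apart in the other two, was noticed on inspection. Such a pair was present in 3 and 7 of all 32841 promoters, for the respective spacings. Of these, 1 and 3 were the called Cyp3a windows themselves, with Cyp3a25 entered more than once at starts 1 base apart. The spacings were taken from these same sequences, so the counts are no test of enrichment. Alone, AGGTCA was in 16.3% of all promoters and AGTTCA in 13.99%. A promoter was found for 18 of the 23 called genes, of which 6 held AGGTCA (Ces2a, Cyp2c29, Cyp3a11, Cyp3a25, Cyp3a59 and Fam25c) and 3 held AGTTCA (Cyp2c50, Cyp3a11 and Nat8). Direct repeats with 1, 3 or 4 bases between half-sites and everted repeats with 6 were in 0 of these 18, and in at most 0.0822% of all promoters. These are matches of letters in a short window and say nothing of binding.

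At Cyp2c29, Cyp2c50 and Cyp2b10, P450s known as targets of CAR and PXR, the humanised genotypes differed from each other. Cyp2c29, an abundant P450 of the Cyp2c family, was at 3582, 2699 and 3244 CPM in hCAR/hPXR mice but at 647, 601 and 609 CPM in Car KO/hPXR mice. In WT mice it was at 825, 475 and 446 CPM with corn oil and at 850.4, 689 and 968 CPM with CITCO. The log2 fold change of the humanised side over WT was 1.01 (standard error 0.15, adjusted p = 0.00488), made up of 2.19 in hCAR/hPXR and -0.17 in Car KO/hPXR mice. Against WT CITCO alone the call was lost (log2 fold change 0.75, adjusted p = 0.145). Cyp2c50 departed from WT mainly in Car KO/hPXR mice. It was at 224, 303 and 231 CPM in Car KO/hPXR mice and at 573, 799 and 440.4 CPM in hCAR/hPXR mice, with 645 to 842 CPM in the 6 WT libraries. Its log2 fold change was -0.87 (standard error 0.14, adjusted p = 0.00727), made up of -1.50 in Car KO/hPXR and -0.24 in hCAR/hPXR mice. The humanised genotypes differed from each other at both genes (adjusted p = 1.77e-05 for Cyp2c29 and 0.00561 for Cyp2c50). In the fit with a single mean for each side neither gene was called (adjusted p = 0.382 for Cyp2c29 and 0.531 for Cyp2c50), and reads of Cyp2c relatives may be shared. Cyp2b10, the standard marker gene of CAR activation and also added after its values were seen, had counts of 281, 288 and 184 in hCAR/hPXR mice and of 1, 0 and 3 in Car KO/hPXR mice, with 0 to 6 in WT mice. It was not called for the humanised side (log2 fold change 3.40, standard error 0.72, adjusted p = 0.0509), and hCAR/hPXR mice exceeded Car KO/hPXR mice at least 67.7-fold (adjusted p = 5.88e-08).

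Of 27 listed P450 targets of CAR and PXR, 14 were tested, of which 4 were called higher (Cyp2c29, Cyp3a11, Cyp3a25 and Cyp3a59) and 1 lower (Cyp2c50). Over all genes tested, 0.268% were called. The median log2 fold change was 0.72, at 0.99 for hCAR/hPXR and 0.18 for Car KO/hPXR mice over the same WT libraries. Of the 13 that were not tested, 4 had no count in any library. The summed level of the list was 9985 to 10833 CPM in hCAR/hPXR mice, 4599 to 6059 CPM in Car KO/hPXR mice and 3706 to 5825 CPM in WT mice. Among 29 other P450s tested and 14 genes for P450 reductase, its partners and heme synthesis, 0 were called in edgeR. There 6 and 1 had an unadjusted p-value under 0.05, against 7.69% of all genes, and DESeq2 called 1 and 0.

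**Figure D3:**
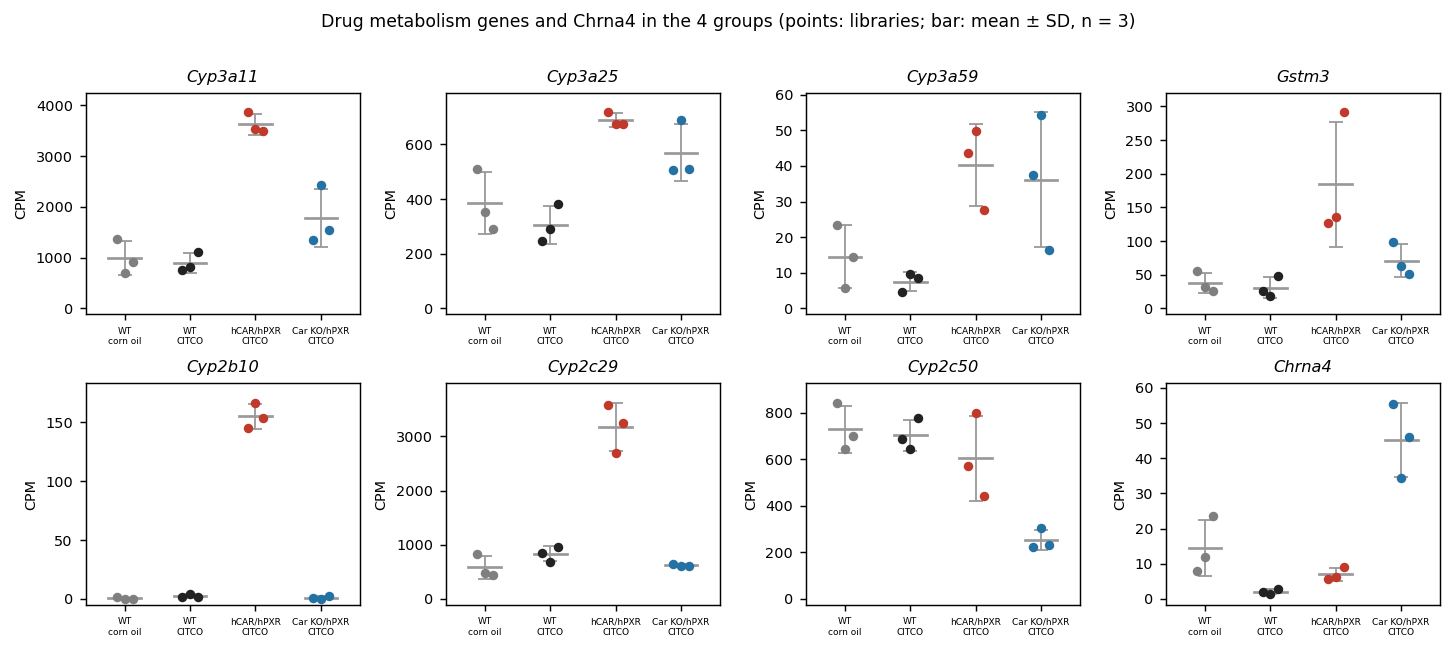
CPM of each library (y axis, linear and starting at 0) in the 4 groups (x axis) for 6 P450 genes, Gstm3 and Chrna4. Points are libraries and grey bars are the mean ± SD of 3 libraries, with lower bars stopped at 0; the mean of each humanised group is above both WT means for Cyp3a11, Cyp3a25, Cyp3a59 and Gstm3, Cyp2b10 and Cyp2c29 are high in hCAR/hPXR mice, and Chrna4 is highest and Cyp2c50 lowest in Car KO/hPXR mice.

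Single genes of conjugation and hydrolysis were also higher. Gstm3, a mu-class glutathione S-transferase, was at 126, 135 and 291 CPM in hCAR/hPXR mice and at 98.5, 63.5 and 50.9 CPM in Car KO/hPXR mice. In WT mice it was at 55.1, 32.4 and 26.0 CPM with corn oil and 25.3, 18.7 and 48.5 CPM with CITCO. The hCAR/hPXR libraries were all above WT, and the lowest Car KO/hPXR library fell just inside the WT range. The log2 fold change was 1.73 (standard error 0.27, adjusted p = 0.00488), and the call held with any library left out but not against WT corn oil alone (adjusted p = 0.0614). The related Gstm1, likewise added, at 2068 ± 1060.2 CPM in humanised and 1247 ± 179 CPM in WT mice (SD, n = 6 each), was not called (adjusted p = 0.267). Of 47 conjugation enzymes tested, Gstm3 was called higher and Nat8 lower, against 0.268% of all genes called, with a median log2 fold change of 0.06. Ces2a, a carboxylesterase that hydrolyses drug esters, ranged from 224 to 481 CPM in humanised libraries (median 293) and from 152 to 241 CPM in WT (median 174). Its log2 fold change was 0.76 (standard error 0.14, adjusted p = 0.0223), made up of 1.02 in hCAR/hPXR and 0.50 in Car KO/hPXR mice. In Car KO/hPXR mice alone Ces2a was not called (edgeR, adjusted p = 0.451). The call for the humanised side was lost when any of 7 libraries was left out (adjusted p up to 0.0934). Ces2a was the only called gene of 41 hydrolases, reductases and oxidases tested. Gstm and Ces2 genes lie in clusters of near copies, so that their reads may also be shared.

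A chemokine and a protease inhibitor were higher on the humanised side. Cxcl1, a chemokine that attracts neutrophils, had counts of 131, 304 and 110 in hCAR/hPXR mice and of 24, 60 and 24 in Car KO/hPXR mice. The WT counts were 28, 11 and 8 with corn oil and 11, 22 and 16 with CITCO. In CPM every humanised library exceeded every WT library, and the lowest Car KO/hPXR library (15.2) lay at the upper edge of WT. The rise was 5.64-fold (log2 fold change 2.497, standard error 0.33, adjusted p = 0.00117), was called under all 10 other settings and with any library left out, and was greater in hCAR/hPXR mice than with Car deleted (log2 fold change between them 2.01, standard error 0.40, adjusted p = 0.0251). Serpina3m, a secreted inhibitor of serine proteases from a cluster of near copies, was at 476, 474 and 469.6 CPM in hCAR/hPXR mice and at 497, 438 and 431 CPM in Car KO/hPXR mice. WT libraries were at 343, 295 and 251 CPM with corn oil and 277, 248 and 322 CPM with CITCO. The sides did not overlap, and the humanised genotypes were at nearly the same level (log2 fold change between them 0.05, standard error 0.15). Serpina3m was 1.61-fold higher (log2 fold change 0.68, standard error 0.11, adjusted p = 0.00634), a call that held with any library left out but not against WT corn oil alone (adjusted p = 0.0572).

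Both genes stood on a list of 33 acute phase genes, all tested, and were the only ones called, against 0.268% of all genes. The list's median log2 fold change was 0.46, with 30 of 33 members above 0, where all genes tested had 4441 of 8594. The median was 0.85 for hCAR/hPXR but -0.06 for Car KO/hPXR mice over the same WT libraries. WT mice given CITCO had a median of 0.36 over WT mice given corn oil. Saa1, a major acute phase protein that was singled out after its values were seen, was at 2321, 1828 and 78.1 CPM in WT mice given CITCO and at 99.9, 53.6 and 18.1 CPM with corn oil. It was at 6565, 1075 and 1830.0 CPM in hCAR/hPXR and 185, 381 and 82.1 CPM in Car KO/hPXR mice. The sides overlapped (log2 fold change 1.53, standard error 0.59, adjusted p = 0.528), and against WT CITCO alone the log2 fold change was -0.77.

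S100a8, a calcium-binding protein abundant in neutrophils, had counts of 29, 44 and 34 in hCAR/hPXR mice, 7, 7 and 6 in Car KO/hPXR mice, 3, 5 and 4 in WT mice given corn oil and 8, 6 and 3 in WT mice given CITCO. Its log2 fold change over WT was 1.82 (standard error 0.35, adjusted p = 0.0303), at 2.90 for hCAR/hPXR and 0.74 for Car KO/hPXR mice, and the humanised genotypes differed from each other (adjusted p = 0.0242). The call was lost when any of 11 libraries was left out (adjusted p up to 0.0948). Of 9 neutrophil markers, 2 were tested, S100a8 and S100a9, and S100a9 was not called (log2 fold change 1.4996, standard error 0.47, adjusted p = 0.323). The other 7 had at most 4 counts in any library, with Elane at 0 throughout. The summed level of all 9 was 34.7 to 50.05 CPM in hCAR/hPXR, 7.39 to 11.7 CPM in Car KO/hPXR and 3.58 to 11.03 CPM in WT mice. This sum includes S100a8 itself and is therefore no separate measure of neutrophils. Its part in the change of Cxcl1 was not tested. In whole liver, more cells of a type and more RNA per cell cannot be told apart.

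The other called genes belonged to varied functions. Pla2g12a, a secreted phospholipase A2, was at 34.7, 54.4 and 38.4 CPM in hCAR/hPXR mice and 34.3, 33.4 and 42.7 CPM in Car KO/hPXR mice. All of these exceeded the WT libraries, which ranged from 14.8 to 29.2 CPM. The log2 fold change was 0.97 (standard error 0.19, adjusted p = 0.0370). Pithd1 was at 23.8, 24.9 and 21.7 CPM in hCAR/hPXR and 35.6, 25.05 and 37.8 CPM in Car KO/hPXR mice, under WT values of 39.6 to 58.7 CPM. For Pithd1 the log2 fold change was -0.73 (standard error 0.15, adjusted p = 0.0375). Although the sides did not overlap for either gene, their calls were lost when any of 9 libraries was left out for Pla2g12a and any of 11 for Pithd1 (adjusted p up to 0.136 and 0.104).

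Igfbp1, a binding protein for insulin-like growth factors that insulin represses, was at 210.3, 193 and 314 CPM in hCAR/hPXR and 47.7, 117 and 139 CPM in Car KO/hPXR mice. In WT mice it was at 116, 97.3 and 93.0 CPM with corn oil but at 27.2, 19.4 and 61.9 CPM with CITCO. The log2 fold change was 1.35 (standard error 0.25, adjusted p = 0.0236), and it ranged from 0.60 against WT corn oil alone (adjusted p = 0.676) to 2.10 against WT CITCO alone. Igfbp1 was the only called gene among 27 of the insulin and fasting response, against 0.268% of all genes. Dusp6, a phosphatase that switches off ERK, ranged from 48.3 to 105 CPM in humanised libraries (median 90.05) and from 30.5 to 56.8 CPM in WT (median 39.7), which made its log2 fold change 1.003 (standard error 0.19, adjusted p = 0.0236). It was the only called gene among 21 immediate early and stress genes, again against 0.268% of all genes. Both calls were lost when any of 7 libraries was left out (adjusted p up to 0.104 for Igfbp1 and 0.0791 for Dusp6).

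Chrna4, a subunit of the nicotinic acetylcholine receptor, was carried by Car KO/hPXR mice, with counts of 87, 41 and 56 against 11, 11 and 11 in hCAR/hPXR mice. The WT groups also differed, with counts of 18, 17 and 39 for corn oil and 3, 2 and 4 for CITCO. Over both WT groups the log2 fold change was 1.69 (standard error 0.32, adjusted p = 0.0286), at 3.04 for Car KO/hPXR and 0.33 for hCAR/hPXR mice. It was not called against WT corn oil alone (log2 fold change 0.31, adjusted p = 0.898) and the call was lost when any of 9 libraries was left out (adjusted p up to 0.0948). Prg4, the lubricating proteoglycan of joints that liver also secretes, and Fam25c were named after their values were seen. Prg4 ranged from 22.2 to 56.99 CPM in humanised and from 5.82 to 31.8 CPM in WT libraries (log2 fold change 1.29, standard error 0.24, adjusted p = 0.0236). The WT CITCO libraries all lay above WT corn oil, and Prg4 was not called against WT CITCO alone (log2 fold change 0.56, adjusted p = 0.617). Fam25c ranged from 40.9 to 84.5 CPM in humanised and from 78.1 to 132 CPM in WT libraries (log2 fold change -0.81, standard error 0.15, adjusted p = 0.0286). Its call was lost against WT CITCO alone (adjusted p = 0.166) and when any of 6 libraries was left out (adjusted p up to 0.104), as was that of Prg4 for any of 7 (adjusted p up to 0.0934).

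**Figure D4:**
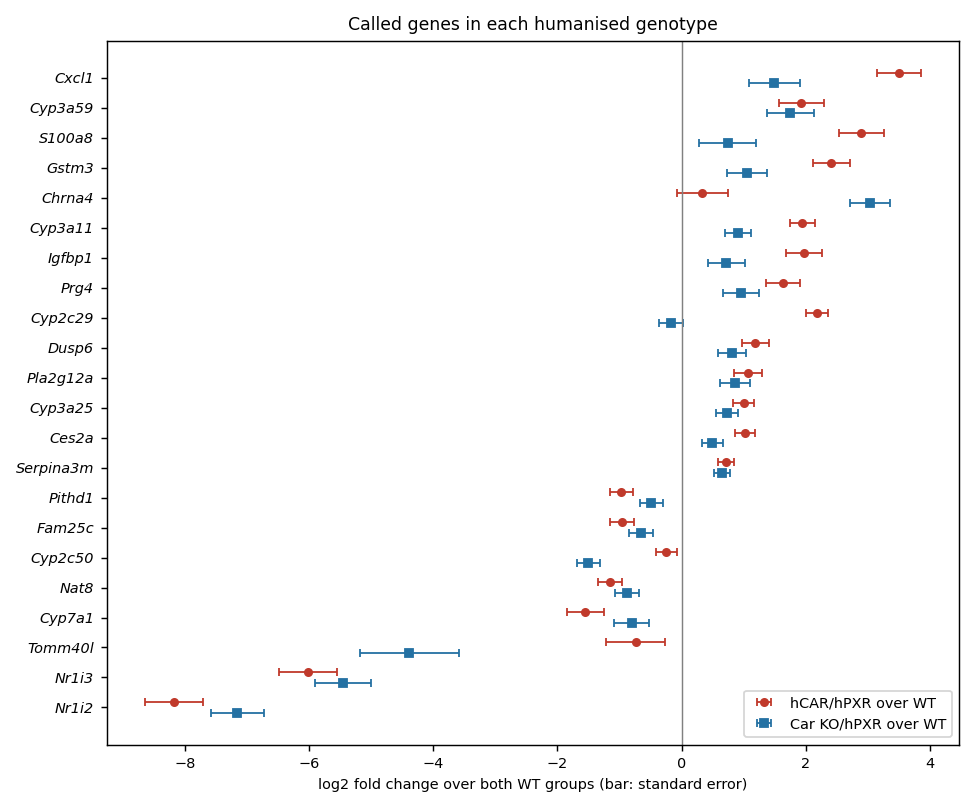
Log2 fold changes with standard errors (x axis) of the called genes named in the text (y axis) in hCAR/hPXR mice (circles) and Car KO/hPXR mice (squares), each over the same 6 WT libraries, as fitted and without bounds. The genotypes are close at Serpina3m (0.71 and 0.66) and Cyp3a59 (1.93 and 1.75), and apart at Cyp2c29 (2.19 and -0.17), Chrna4 (0.33 and 3.04) and Tomm40l (-0.74 and -4.38).

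Whether the called genes also differed within a side was tested in the same fit. The humanised genotypes differed at 50 genes (0.582%), and 5 of the 23 were among them: Cyp2c29, Cyp2c50, Cxcl1, S100a8 and Chrna4. For these, the average over the humanised side hides a difference between its genotypes. CITCO and corn oil differed at 20 genes in WT mice (0.233%), and 1 of the 23 was among them, Chrna4. The other 18 genes were called in neither, and a p-value that misses the threshold does not show that the groups were alike. Each genotype was also compared alone with the same 6 WT libraries, which had entered the choice of the 23. The hCAR/hPXR mice gave 83 called genes (0.966%), including 19 of the 23. The Car KO/hPXR mice gave 9 (0.105%), including 5 of the 23, namely Nr1i2, Nr1i3, Cyp2c50, Chrna4 and Tomm40l. For Car KO/hPXR mice alone Cyp3a11 had an adjusted p of 0.134, Cxcl1 of 0.272, Nat8 of 0.0965 and Serpina3m of 0.0571, so that these were not called in that genotype by itself. Single libraries moved these numbers. Between the humanised genotypes 86 genes were called when WT CITCO replicate 3 was left out, 23 and 19 when replicates 1 and 3 of hCAR/hPXR were left out, and 19 and 10 when replicates 1 and 3 of Car KO/hPXR were. Within WT the number was 7 and 6 when replicates 2 and 3 of the corn oil group were left out, and 7, 7 and 54 when replicates 1, 2 and 3 of the CITCO group were, in that order.

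Against WT mice given the same compound, 37 genes were called for the humanised side (0.431%). Of the 23, 14 were among them, and those that lost the call included Pla2g12a, Pithd1, S100a8 and Tomm40l. Against WT corn oil alone 17 genes were called (0.198%), of which 11 were among the 23, and Ces2a, Dusp6, Pla2g12a and S100a8 were among those that lost it. Nr1i2, Nr1i3, Nat8, Cyp3a11, Cxcl1 and Cyp2c50 were called against each WT group. Both comparisons used the same humanised libraries, and all libraries had entered the choice of the 23, so they are not independent tests of these genes.

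A further measure was whether the 6 humanised and the 6 WT libraries overlapped at all. They did not at 29 genes (0.337%), 15 higher and 14 lower, of which 8 were called. The 21 others missed the adjusted threshold (adjusted p from 0.109 to 0.687) and are given as values, with names chosen after they were seen. If libraries were shuffled between the sides, a gene would separate like this with a probability of 0.00216 (exact permutation, 6 against 6). Against the 0.337% seen, separation at many of these genes can therefore arise by chance. Smim22, which encodes a small membrane protein, was at 42.8 ± 3.77 CPM in humanised and 24.7 ± 7.60 CPM in WT mice. Epas1, the hypoxia-inducible factor HIF-2α, was at 136 ± 7.86 and 101 ± 8.49 CPM, and C2, a complement protease, at 180.3 ± 11.9 and 134 ± 16.5 CPM. Sult2a8, a hepatic sulfotransferase, was at 232 ± 26.9 CPM in humanised and 309 ± 15.3 CPM in WT mice, and Cyp2a12, a steroid hydroxylase, at 207 ± 27.1 and 279.8 ± 36.0 CPM (SD, n = 6 each). For these 5 genes both genotypes lay close together, with log2 fold changes between them from -0.15 to 0.10.

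The following lists for other liver functions held no called member in edgeR, and they are described by their counts and medians. DESeq2 called 2 of the PPARα targets, 1 male-high gene and 0 of the genes for lipid synthesis or the unfolded protein response. In edgeR 14, 10, 9 and 1 of these had an unadjusted p-value under 0.05. Over all genes tested, DESeq2 called 44 and 7.69% had such a p-value in edgeR, for comparison here and below. Of 39 tested targets of PPARα, the receptor that drives fatty acid oxidation, 32 had a log2 fold change below 0, all genes tested being close to even (4153 of 8594 below 0). The median was -0.21, at -0.26 for hCAR/hPXR and -0.16 for Car KO/hPXR mice. Fabp1, the fatty acid carrier of liver, was at 2845 ± 490.3 CPM in humanised and 3380.1 ± 414 CPM in WT mice (SD, n = 6 each; adjusted p = 0.606). For fatty acid and cholesterol synthesis 36 of 40 were above 0 with a median of 0.14, which was 0.40 for Car KO/hPXR and -0.10 for hCAR/hPXR mice. The sign depended on the WT group, with a median of 0.37 against WT CITCO alone and -0.03 against WT corn oil alone, and the WT CITCO group itself had a median of -0.39 over corn oil. Scd1, the stearoyl-CoA desaturase, was at 6755, 3858 and 5720.4 CPM in Car KO/hPXR mice and ranged from 642 to 4596 CPM in the other 9 libraries (adjusted p = 0.559 for the humanised side). Of 23 unfolded protein response genes 20 were above 0 with a median of 0.10, at 0.37 for hCAR/hPXR and -0.13 for Car KO/hPXR mice. The chaperone Hspa5 was at 1611, 1946 and 1677 CPM in hCAR/hPXR mice and 911, 807 and 818 CPM in Car KO/hPXR mice, and the genotypes differed from each other (adjusted p = 0.0207).

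**Figure D5:**
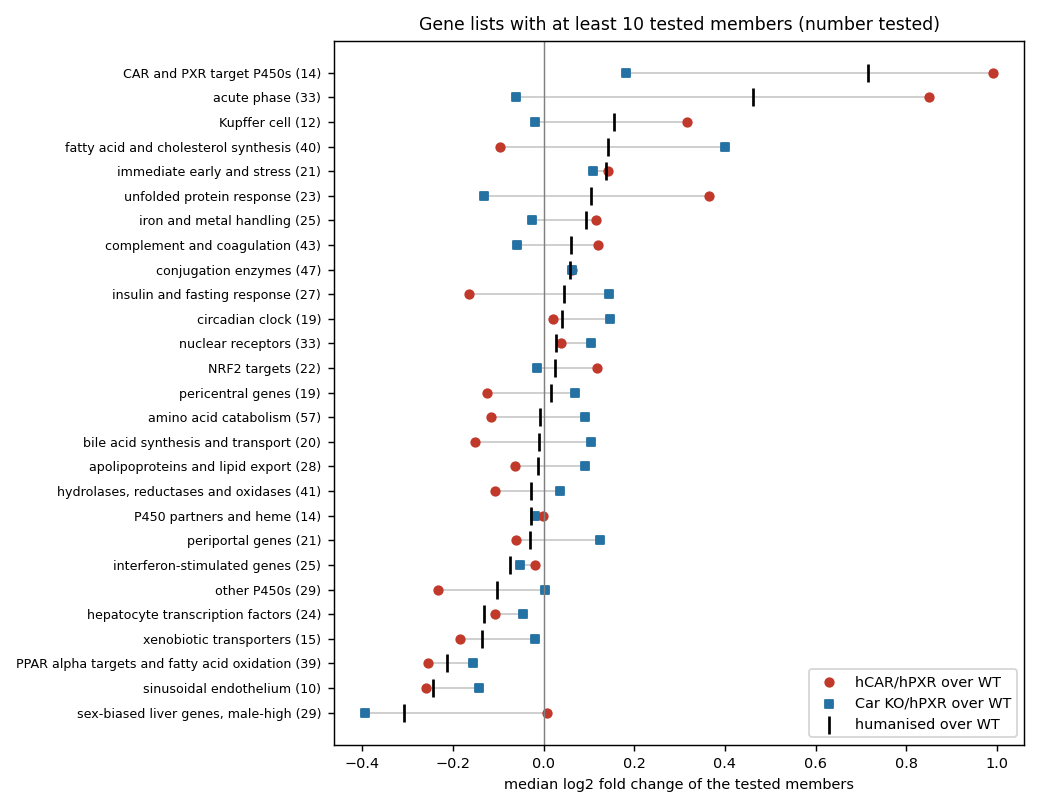
Median log2 fold change (x axis) of the tested members of each list with at least 10 (y axis, number tested in brackets), for hCAR/hPXR mice (circles), Car KO/hPXR mice (squares) and both (bars) over the same 6 WT libraries. The P450 targets of CAR and PXR and the acute phase genes lie highest at 0.72 and 0.46, with hCAR/hPXR mice at 0.99 and 0.85, and PPARα targets lie at -0.21.

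Male-high liver genes, among them the major urinary proteins, had 25 of 29 tested members below 0 and a median of -0.31, which was -0.39 for Car KO/hPXR and 0.01 for hCAR/hPXR mice. Their abundant members Mup7 and Mup14 are near copies whose reads are shared, and their sides overlapped (adjusted p = 0.942 and 0.948). Of 24 female-high liver genes 6 were tested, with 5 below 0 and a median of -0.69, which was -1.06 for hCAR/hPXR and -0.13 for Car KO/hPXR mice. None of the 6 was called in edgeR, 4 had an unadjusted p-value under 0.05, and DESeq2 called 2. Among markers of other liver cells, the 5 tested for red blood cells were all below 0, with a summed level of 1859 to 3424 CPM in humanised and 1989 to 3988 CPM in WT libraries. All 9 tested for stellate cells were below 0 as well (254 to 368 CPM against 306 to 475 CPM), and so were 9 of 10 for sinusoidal endothelium (289 to 386 CPM against 361 to 405 CPM). Kupffer cell markers were above 0 for 9 of 12 (448 to 642 CPM against 334 to 581 CPM). Their median log2 fold change was 0.32 for hCAR/hPXR but -0.02 for Car KO/hPXR mice. It was 0.39 against WT corn oil alone and -0.003 against WT CITCO alone, and WT CITCO itself had a median of 0.45 over corn oil. None of these markers was called in edgeR, with 3, 1, 2 and 2 of them at an unadjusted p-value under 0.05, and DESeq2 called 1, 0, 0 and 0.

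Genes known to differ between C57BL/6 substrains were examined because the lines may differ in background. Of 11 listed, 6 were tested and 0 were called in edgeR or DESeq2, with 0 at an unadjusted p-value under 0.05. Nnt, a mitochondrial transhydrogenase of which the C57BL/6J substrain lacks a functional copy, was at 61.6 ± 10.2 CPM in humanised and 60.5 ± 7.16 CPM in WT mice (SD, n = 6 each; log2 fold change 0.02, standard error 0.14, adjusted p = 0.992). It was present at 47.0 CPM or more in every library. Counts of 3' ends do not read the whole transcript, so the Nnt allele carried by each line was not determined.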

How the data were processed

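Livers of 12 male mice were sequenced as Lexogen QuantSeq 3' mRNA libraries for Ion Torrent, 3 per group, and each library was assigned by its title, genotype and treatment. Per the labels and methods, the authors trimmed reads with Trimmomatic, aligned them to GRCm38 (Ensembl) with STAR 2.5.2 and deposited RSEM 1.3 expected counts per gene, and 9.34% of values were fractional among detected genes. Values after DESeq2's variance-stabilising transformation, close to a log2 scale, were deposited as well and served for an alternative only. The labels name no batch, and nothing in them says that replicates were separate experiments beyond separate animals, so that p-values measure the spread between these libraries.

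Expected counts were rounded and tested with edgeR 4.0.16 (R 4.3.3; TMM scaling, filterByExpr, quasi-likelihood test, a mean for each group). The filter on low counts kept 8594 of 51912 genes. A called gene had a fold change over 1.5 together with an adjusted p-value under 0.05 (Benjamini-Hochberg). The methods give DESeq2, which was run as an alternative (1.42.0). CPM were computed on TMM-scaled library sizes, and bounds used a floor of 3 counts per library, which covers counting error only. Positions are GENCODE coordinates on GRCm38. The pipeline was tested on simulated counts with known changes.

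The genes described were the targeted genes, called genes whose sides did not overlap, called members of the gene lists, called genes that also differed within a side, and from lists without a call some of the most abundant members. Genes outside this rule are named as such. Some genes that the rule gives are not reported here. The comparison and the lists were chosen with earlier results of these data known. Alternatives were DESeq2 size factors, no scaling, DESeq2, a looser and a stricter filter on low counts, a single mean for each side, each WT group alone, a replicate block, limma 3.58.1 on the deposited transformed values, and leaving out each library.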

Additional observations from a re-analysis of the deposited data

Results flagged for a closer look

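Single libraries stood apart from the other 5 of their side at 3 of the called genes. Gstm3 was at 291 CPM in hCAR/hPXR CITCO replicate 3, with the next humanised library at 135 CPM. Ces2a was at 481 CPM in hCAR/hPXR CITCO replicate 2, with the next at 318 CPM, and at 241 CPM in WT corn oil replicate 1, with the next WT library at 177 CPM. Tomm40l was at 28.2 CPM in WT corn oil replicate 2, with the next at 10.4 CPM. These are 4 of 46 sets of 6 libraries looked at with Dixon's critical values, a test that chance passes in about 1 of 20 sets.

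The humanised genotypes differed from each other in edgeR at 5 of the called genes and at Cyp2b10. The log2 fold change of hCAR/hPXR over Car KO/hPXR mice was 2.36 for Cyp2c29, 2.16 for S100a8, 2.01 for Cxcl1, 1.26 for Cyp2c50 and -2.70 for Chrna4. For Cyp2b10 it was fitted at 7.16, a value that depends on the prior count because the Car KO/hPXR libraries were at or under 3 counts. Chrna4 also differed between the WT groups, with a log2 fold change of -2.76 for CITCO over corn oil (edgeR, adjusted p = 0.0250).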

How the results depend on the processing

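The 22 called genes named in the text kept their direction under the 10 other settings, and 5 of them (Nr1i2, Nr1i3, Cxcl1, Nat8 and Cyp3a11) also kept their call under each of these and with any of the 12 libraries left out. The number of genes called for the humanised side was 44 with DESeq2 and 140 with no filter beyond 1 count, both holding all 23, and 11 with a single mean for each side and 37 against WT CITCO alone, which held 11 and 14 of them. Leaving out a library gave 10 to 27. Between the humanised genotypes the number was 98 with DESeq2 and 233 without the filter, and 10 to 86 with a library left out. Within WT it was 47 with DESeq2 and 179 without the filter, and 6 to 54 with a library left out. The cause was not tested. Among genes without a call, the log2 fold change turned to -0.0044 against WT corn oil alone for Nnt, to -0.77 against WT CITCO alone for Saa1 and to 0.48 with a single mean for each side for Pcp4l1. With a library left out Nnt ranged from -0.077 to 0.067 and Mup14 from -0.33 to 0.031.

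Replicate numbers were shared between the groups, and the labels do not say what they mark. Deviations of same-numbered libraries correlated at -0.058 to 0.074 (median 0.031), with 0 of 18 pairs over 0.1. Differently numbered libraries of other groups correlated at -0.11 to 0.14 (median -0.0099), with 1 of 36 pairs over 0.1. Of 12 libraries, 8 were closest to their own number among the 3. Whether the numbers mark a batch was not tested. A replicate block gave 21 called genes for the humanised side (15 higher and 6 lower), 19 of them among the 23, with 53 between the humanised genotypes and 20 within WT. Depth sets the floor, where 3 counts were worth 1.34 to 2.505 CPM in the 12 libraries.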
